A study of Mus musculus with 50 samples.

Results

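The 10 genes described here are Maoa, Zfp334, Plod2, Adgrl2, Nid2, Nsd1, Sdc3, Lgals9, Arl4c and AI504432, of 55416 genes in the deposited table. They were chosen because their levels in every SGK knockout line lay apart from those in the control line, with Maoa and Zfp334 higher and the other 8 lower. The knockout against control values are therefore given as a description, without a test, and what was tested is whether an SGK inhibitor, the stimulus or the choice of knockout line moved these genes. Each symbol matched 1 row of the table, and all 10 passed the filter on low counts, which left 18315 genes for testing.

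RNA was sequenced from RAW264.7 cells, a mouse macrophage line, in 50 libraries. The control cells carried an empty vector sgRNA and are called WT, as in the labels; the edited lines were a knockout of SGK1 (SGK1KO), a knockout of SGK3 (SGK3KO) and a double knockout (dKO), all made with CRISPR guides. Cells were left untreated (rest) or stimulated for 2 h with DMXAA at 10 µg/mL, which activates mouse STING, and 1 further set of WT cells received the SGK inhibitor Sanofi-14h at 500 nM over the 2 h that preceded DMXAA. Batch b1 held 3 WT libraries at rest, 5 with DMXAA and 5 with the inhibitor and DMXAA, 3 SGK3KO libraries at rest and 5 with DMXAA, and 5 dKO libraries with DMXAA. Batch b2 held 3 WT, 3 SGK1KO and 3 dKO libraries at rest, and 4 WT, 4 SGK1KO and 3 dKO libraries with DMXAA. Batch b3 held 4 libraries whose titles mark them as reruns. The labels name 1 line per genotype without saying whether it was a clone, and do not say which WT libraries received the inhibitor's vehicle, DMSO. Line and genotype therefore cannot be told apart in any knockout value below.

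SGK1 and SGK3 are serine/threonine kinases that act downstream of PI3K, and STING is a sensor adaptor that switches on interferon and inflammatory genes when it binds a cyclic dinucleotide or, in mouse cells, DMXAA. The 10 genes have unlike roles. Maoa encodes a mitochondrial enzyme that oxidises monoamines, and Zfp334 a zinc finger protein. Plod2 encodes a lysyl hydroxylase of collagen, Nid2 a basement membrane glycoprotein, and Sdc3 a cell surface heparan sulfate proteoglycan. Adgrl2 encodes an adhesion G protein-coupled receptor, Lgals9 the glycan-binding protein galectin-9, Arl4c a small GTPase, and Nsd1 a methyltransferase of lysine 36 of histone H3. AI504432 is annotated as a lncRNA.

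The genes lie at 10 separate places of the GRCm39 assembly, as the deposited table gives them. Maoa spans chromosome X from 16485937 to 16554057, Zfp334 chromosome 2 from 165216184 to 165230179, Plod2 chromosome 9 from 92424276 to 92490481, and Nid2 chromosome 14 from 19801333 to 19861855. Nsd1 spans chromosome 13 from 55357595 to 55466138, Sdc3 chromosome 4 from 130519848 to 130553630, Lgals9 chromosome 11 from 78853800 to 78875772, and Arl4c chromosome 1 from 88600847 to 88629943. Adgrl2 (148521219 to 148696191) and AI504432 (106946820 to 106961663) are both on chromosome 3. These intervals cover the whole gene, with its exons, introns and UTRs.

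Promoter sequences of 6 of the 10 genes were found in RefSeq on the older assembly GRCm38.p6; Plod2, Nid2, Nsd1 and AI504432 had no entry. Below are the 250 bases before the start of both genes that were higher in the knockout lines and of 2 that were lower, so that they can be set side by side. They are 5′ to 3′ on the gene's own strand, and capitals mark the only motif matches, to an ISRE, the interferon-stimulated response element (GAAA, any 2 bases, GAAA, on either strand). On GRCm38.p6 the Maoa window is chrX:16619448-16619697 (plus strand), that of Zfp334 chr2:165388260-165388509 (minus), that of Adgrl2 chr3:148954636-148954885 (minus) and that of Lgals9 chr11:78984925-78985174 (minus).
Maoa: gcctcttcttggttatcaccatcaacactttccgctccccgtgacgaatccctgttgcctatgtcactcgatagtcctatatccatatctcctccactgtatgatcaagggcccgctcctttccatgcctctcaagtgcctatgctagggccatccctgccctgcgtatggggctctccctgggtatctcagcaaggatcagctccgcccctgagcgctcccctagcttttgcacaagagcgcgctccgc
Zfp334: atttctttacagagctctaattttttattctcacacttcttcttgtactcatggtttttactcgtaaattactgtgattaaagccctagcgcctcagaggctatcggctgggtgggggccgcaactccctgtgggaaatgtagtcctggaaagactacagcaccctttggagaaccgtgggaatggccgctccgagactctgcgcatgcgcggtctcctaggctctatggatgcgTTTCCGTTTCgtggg
Adgrl2: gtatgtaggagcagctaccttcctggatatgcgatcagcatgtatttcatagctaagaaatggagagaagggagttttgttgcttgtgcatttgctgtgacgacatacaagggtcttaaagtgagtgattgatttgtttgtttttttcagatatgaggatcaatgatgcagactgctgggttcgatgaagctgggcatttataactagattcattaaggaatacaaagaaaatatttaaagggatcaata
Lgals9: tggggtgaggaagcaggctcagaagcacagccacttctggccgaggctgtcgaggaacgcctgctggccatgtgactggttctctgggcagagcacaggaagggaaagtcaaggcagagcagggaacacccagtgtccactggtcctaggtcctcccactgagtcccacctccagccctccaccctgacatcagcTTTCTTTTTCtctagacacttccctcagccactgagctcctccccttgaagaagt

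Of the 6 promoter windows, 2 held a match to a searched motif, the ISRE-type match of Lgals9 starting at position -55 and that of Zfp334 at -15, counted from the start. Such a match was in 2.98% of 32841 mouse promoter windows of the same length. None of the 6 windows held TGTTTAC (FOXO, 3.17% of windows) or CACGTG (E-box, 6.02%), on either strand. CpG content set the windows apart from one another: Arl4c held 35 CpG and Sdc3 32, more than 97.0% and 95.4% of all windows, whereas Adgrl2 and Lgals9 each held 3, more than 29.0%. Zfp334 held 13 and Maoa 11, and the middle window of all had 6. The genes that were lower in the knockout lines thus included windows both rich and poor in CpG.

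Depth was 57859509 to 112007140 counts per library in batches b1 and b2. Levels are given as CPM, the count of a gene relative to the TMM-adjusted total of its library, and 12 counts per library served as a floor, which was 0.132 to 0.188 CPM by group. Sgk1 RNA was at 50.5 ± 3.18 CPM (SD, n = 5) in b1 WT cells with DMXAA and at 4.78 ± 1.11 (n = 5) in the dKO, and in b2 it was at 35.1 ± 6.52 (n = 4) in WT and 4.25 ± 2.33 (n = 4) in SGK1KO cells. It was also lower than in WT cells with DMXAA where Sgk1 was not edited, at 21.6 ± 2.21 CPM (n = 5) in SGK3KO cells and 11.5 ± 1.98 (n = 5) in WT cells with the inhibitor and DMXAA. Sgk3 RNA was at 104 ± 5.19 CPM (n = 5) in SGK3KO and 100 ± 4.34 (n = 5) in WT cells with DMXAA in b1, and at 118 ± 1.32 (n = 5) in the dKO, so the level of this RNA checks neither the SGK3KO label nor that part of the dKO label. The 8 macrophage markers summed to between 6103 and 12092 CPM in every library, and 30 markers of other cell types summed to at most 2.91 CPM, with 12 of the 30 at 0 throughout. In b2 the macrophage sum was 10024 to 12092 CPM in WT and 6666 to 9252 CPM in the knockout groups; its part in the knockout values was not tested. In bulk RNA, fewer cells with a transcript and less transcript per cell cannot be told apart.

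**Figure D1:**
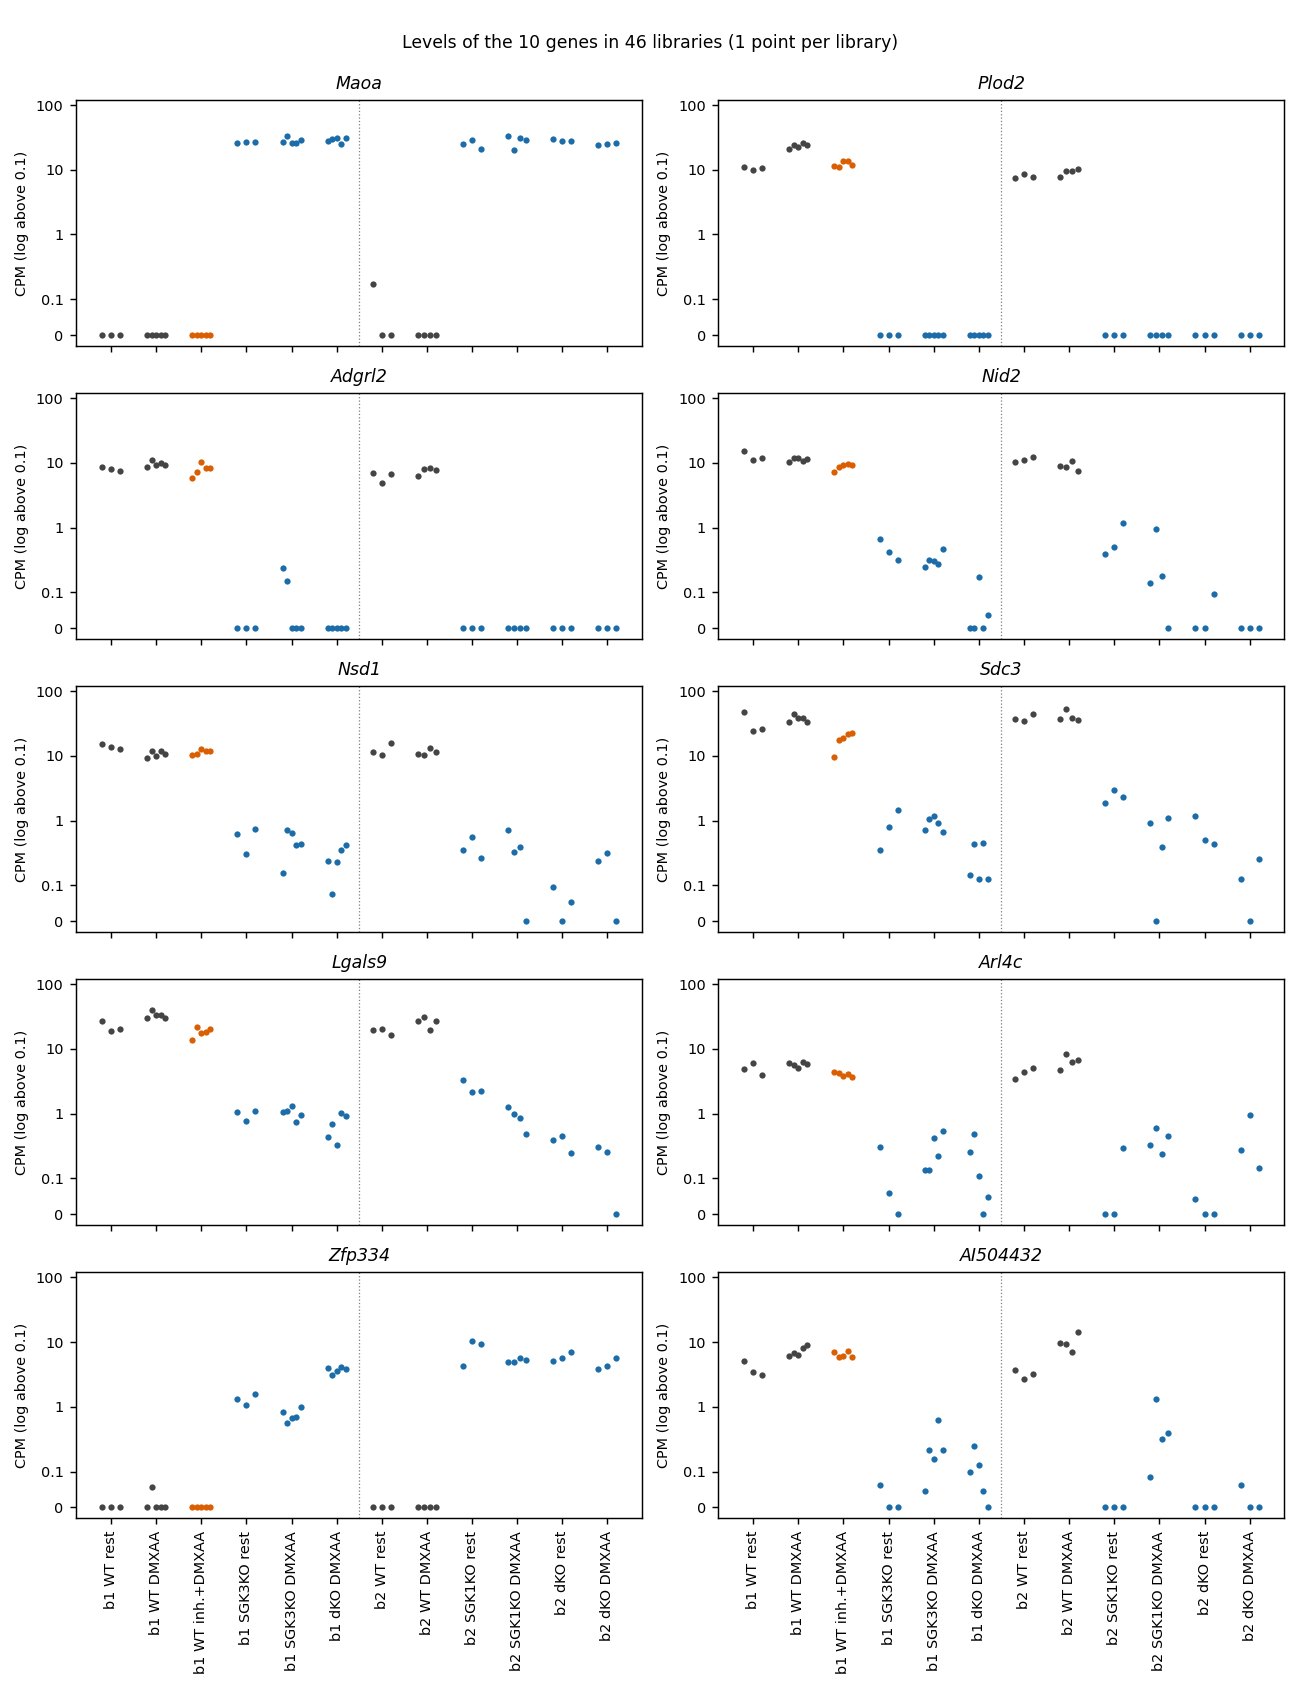
CPM of the 10 genes in the 46 libraries of b1 (left of the dotted line) and b2 (right), 1 point per library, on an axis that is logarithmic above 0.1 and linear below it. Grey points are WT, orange points WT with the inhibitor and DMXAA, and blue points knockout lines. Maoa and Zfp334 sit at or near 0 in WT libraries and the other 8 genes at or near 0 in knockout libraries; no knockout group overlaps the WT group of its batch and treatment, and the inhibitor points lie above every knockout point for the 8 genes with reads in WT cells.

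Maoa was the plainest of the 2 genes that were higher in the knockout lines. It had no count in 19 of the 20 WT libraries and 12 counts in the other, the b2 library A at rest, whereas all 29 knockout libraries, the 3 assigned reruns of b3 included, held 20.0 to 32.7 CPM. The 7 knockout group means of b1 and b2 ran from 24.8 ± 3.78 CPM (n = 3, SGK1KO at rest) to 29.0 ± 2.44 (n = 5, dKO with DMXAA in b1). Neighbours in that order overlapped, except b2 dKO cells with DMXAA (24.2 to 25.6 CPM) and b1 SGK3KO cells at rest (25.9 to 26.8 CPM). Against WT groups with no count, the 5 knockout groups concerned were at least 143-fold to at least 178-fold higher, with the floor of 12 counts in place of 0.

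Zfp334 had no count in 19 of the 20 WT libraries and 4 counts in b1 DMXAA library 2. Unlike Maoa, it differed several-fold among the knockout lines, from 0.570 to 10.5 CPM. SGK3KO cells held 1.33, 1.06 and 1.57 CPM at rest and 0.817, 0.570, 0.667, 0.685 and 1.00 CPM with DMXAA. The dKO libraries of b1 held 3.91, 3.07, 3.53, 4.11 and 3.84 CPM, all above every SGK3KO library. In b2 the dKO held 5.10, 5.77 and 7.01 CPM at rest and 3.89, 4.29 and 5.59 CPM with DMXAA, and SGK1KO cells held 4.26, 10.5 and 9.32 CPM at rest and 4.97, 4.96, 5.66 and 5.26 CPM with DMXAA. These 4 groups of b2 overlapped.

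Plod2 and Adgrl2 were the 2 genes with essentially no reads in the knockout lines. Plod2 was at 0 in all 29 knockout libraries and at 7.57 to 26.1 CPM in the 20 WT libraries. A count of 0 allows up to the floor, so the 7 knockout groups were at least 52.2-fold to at least 156-fold lower than their WT groups. Adgrl2 was at 0 in 27 of 29 knockout libraries, with 21 and 11 counts in SGK3KO DMXAA libraries 1 and 2, and at 4.92 to 11.2 CPM in WT libraries. Where the knockout group had no count, it was at least 40.7-fold to at least 58.7-fold lower. All of these bounds rest on the 12-count floor.

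The other 6 genes kept a low level in the knockout lines. Sdc3 was at 9.75 to 53.5 CPM in WT libraries and 0 to 3.01 CPM in knockout libraries, and Lgals9 at 13.6 to 40.2 CPM and 0 to 3.60 CPM. Nid2 went from 7.34 to 15.0 CPM in WT libraries and from 0 to 1.19 CPM in knockout libraries, and Nsd1 from 9.18 to 15.8 CPM and from 0 to 0.754 CPM. Arl4c was at 3.42 to 8.33 CPM in WT libraries against 0 to 0.942 CPM in knockout libraries, and AI504432 at 2.69 to 14.1 CPM against 0 to 1.33 CPM. Libraries with no count numbered 11 of 29 for AI504432, 10 for Nid2, 7 for Arl4c, 3 for Nsd1, 2 for Sdc3 and 1 for Lgals9. The WT and knockout ranges did not overlap for any of the 6, even across batches and treatments.

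The size of the remainder differed between groups, which differ in line and in treatment. Among the groups of b1 and b2, SGK1KO cells at rest kept the largest share of Lgals9, 13.6% of the WT group mean (log2 fold change -2.88 ± 0.33 SE). The dKO cells with DMXAA in b2 kept 0.71% (-7.19 ± 0.43). In b3, SGK1KO rerun S with DMXAA held 3.60 CPM, against a mean of 2.57 CPM in SGK1KO cells at rest. Sdc3 was at 6.20% of WT in SGK1KO cells at rest and 0.313% in dKO cells with DMXAA in b2. The mean of that dKO group, 0.128 CPM, was under the floor of 0.166 CPM, and the b3 dKO reruns with DMXAA held 0.541 and 0.877 CPM. Nsd1, which sits at low levels in every knockout group, ranged from 0.398% to 4.41% of WT. Its lowest mean, 0.05 CPM in b2 dKO cells at rest, was under the floor of 0.148 CPM. For comparison, 1.35% of the 18315 genes were past an adjusted p of 0.05 in 1 direction in all 7 knockout against WT contrasts, and 1.87% had groups that did not overlap in 1 direction in all 7; since the 10 genes were chosen on these contrasts, nothing is read from their count.

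On the per-length scale of TPM, which allows genes to be compared with each other, Lgals9 was the most abundant of the 10 in WT libraries at 15.3 to 51.9 TPM. Sdc3 (3.35 to 19.7 TPM) and Plod2 (3.94 to 13.96 TPM) overlapped each other, as did Nid2 (2.68 to 6.05 TPM), Adgrl2 (1.83 to 4.80 TPM), AI504432 (0.867 to 4.73 TPM), Nsd1 (1.39 to 3.99 TPM) and Arl4c (1.64 to 3.75 TPM). In knockout libraries Maoa was at 10.4 to 14.8 TPM and Zfp334 at 0.118 to 2.74 TPM.

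Whether the inhibitor moved the genes was asked first. In WT cells of b1 it was given before DMXAA, and the comparison is with WT cells given DMXAA, 5 libraries each; those DMXAA libraries also served as the control of the SGK3KO and dKO contrasts that chose the genes. Of the 8 genes with reads in WT cells, 2 fell past the threshold and none rose, where 4.81% of all genes tested fell and 3.70% rose (8.51% in all). Maoa and Zfp334 stayed at 0 in all 5 inhibitor libraries.

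Plod2 fell from 20.8, 24.1, 22.7, 26.1 and 24.5 CPM with DMXAA to 11.4, 11.2, 13.5, 13.6 and 11.8 CPM with the inhibitor before DMXAA. All 5 inhibitor libraries lay below all 5 others, and above the 9.91 to 11.0 CPM of the 3 WT libraries at rest. The log2 fold change was -0.94 ± 0.12 (adjusted p = 5.45e-06, edgeR's quasi-likelihood test with Benjamini-Hochberg adjustment), and it passed the threshold in all 18 alternatives run.

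Lgals9 fell from 29.6, 40.2, 34.0, 33.7 and 30.0 CPM to 13.6, 21.8, 17.6, 18.3 and 20.1 CPM. The groups did not overlap, and the inhibitor libraries overlapped the 19.3 to 26.96 CPM of the 3 WT libraries at rest. The log2 fold change was -0.87 ± 0.23 (edgeR adjusted p = 0.0111), past the threshold in all 18 alternatives, with adjusted p from 8.43e-05 to 0.0467.

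Sdc3 had the largest fitted change and missed the threshold. It was at 33.3, 44.8, 38.1, 37.9 and 33.3 CPM with DMXAA and at 9.75, 17.5, 19.0, 21.7 and 22.3 CPM with the inhibitor, without overlap and with inhibitor library 1 the lowest. The log2 fold change was -1.05 ± 0.36 (edgeR adjusted p = 0.0601), and 5 of 18 alternatives put it past the threshold (adjusted p from 0.00458 to 0.209). The fit shares 1 spread per gene over all groups, and the members sit close to 0 in the knockout groups, where counts are few. With the 2 groups fitted alone, the SE of the Sdc3 change was 0.20 in place of 0.36. What part the knockout groups had in the wider SE was not tested.

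The remaining 5 genes gave no call. Arl4c was at 6.14, 5.62, 5.06, 6.35 and 5.88 CPM with DMXAA and at 4.49, 4.29, 3.87, 4.17 and 3.65 CPM with the inhibitor, a log2 fold change of -0.51 ± 0.56 (edgeR adjusted p = 0.771). Nid2 went from a mean of 11.2 ± 0.745 CPM (n = 5) to 8.81 ± 0.917 (n = 5), a log2 fold change of -0.35 ± 0.45 (edgeR adjusted p = 0.825). The groups of these 2 did not overlap either. An edgeR fit of the 2 groups alone put Arl4c (adjusted p = 0.00574), Nid2 (0.0121) and Sdc3 (0.0058) past the threshold. It did so for 19.1% of the genes it tested. In that fit the SE was 0.12 for Arl4c and 0.09 for Nid2. Adgrl2 (-0.26 ± 0.39), AI504432 (-0.19 ± 0.48) and Nsd1 (0.12 ± 0.40) had overlapping groups and adjusted p of 0.860, 0.937 and 0.961 in edgeR. In all, 5 of the 8 had inhibitor libraries wholly below the DMXAA libraries, against 6.31% of all genes tested. The median log2 fold change of the 8 was -0.43, and that of all genes tested was 0. The genes were chosen partly for being high in these same DMXAA libraries, which can favour a fall. The count and the median are therefore a description only.

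After 2 h of inhibitor and then 2 h of DMXAA, none of the 8 genes was at a knockout level. Longer exposure to the inhibitor was not tested. The lowest inhibitor library held 11.2 CPM of Plod2, where every knockout library held 0. For Sdc3 the lowest inhibitor library was at 9.75 CPM and the highest knockout library at 3.01, and for Lgals9 these were at 13.6 and 3.60 CPM. As a share of the DMXAA mean, the inhibitor group kept 52.0% of Plod2, 54.6% of Lgals9 and 48.1% of Sdc3.

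**Figure D2:**
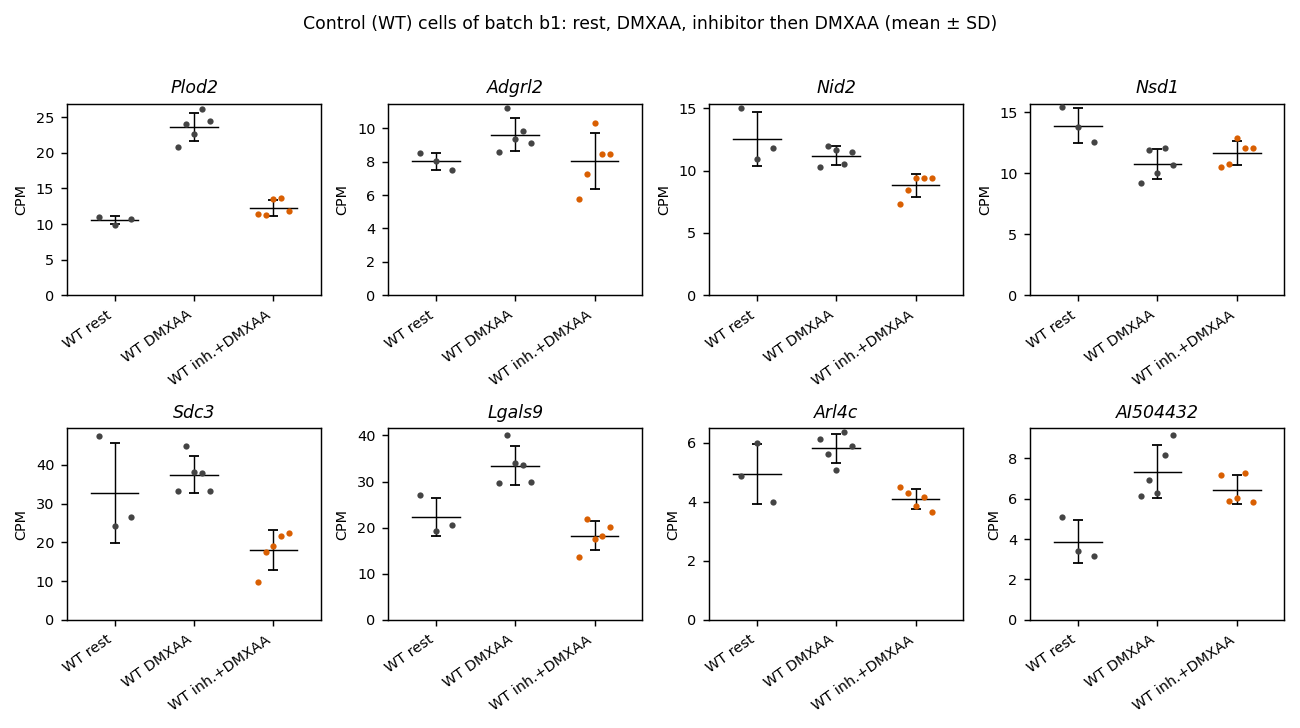
CPM in b1 WT cells at rest, with DMXAA, and with the inhibitor then DMXAA, for the 8 genes with reads in WT cells. Points are libraries (3, 5 and 5), lines are means and bars are SD. The inhibitor points lie below all DMXAA points for Plod2, Nid2, Sdc3, Lgals9 and Arl4c, and mix with them for Adgrl2, Nsd1 and AI504432.

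Among the 8 genes with reads in WT cells, DMXAA by itself gave 1 call in b1 and none in b2. A gene counts as having a fold only where at least 1 of the 2 group means was above the floor. Maoa in b2 WT cells had no fold and is left out of the counts, although it passed on the few counts of library A (edgeR adjusted p = 0.0183). In b1 WT cells 1 of the 8 measured genes rose and none fell, where 10.8% of all genes tested rose and 10.3% fell (21.1% in all): Plod2 went from 11.0, 9.91 and 10.7 CPM at rest to 20.8 to 26.1 CPM, a log2 fold change of 1.17 ± 0.14 (edgeR adjusted p = 7.77e-07). It passed the threshold in all 16 alternatives run. Lgals9 was at 22.2 ± 4.13 CPM (n = 3) at rest and 33.5 ± 4.24 (n = 5) with DMXAA, without overlap, and gave 0.59 ± 0.27 (edgeR adjusted p = 0.132), past the threshold in 3 of 16 alternatives. AI504432 was at 3.88 ± 1.04 and 7.33 ± 1.30 CPM in the same groups and gave 0.92 ± 0.57 (edgeR adjusted p = 0.308). Nsd1 was at 13.9 CPM at rest and 10.8 CPM with DMXAA and gave -0.37 ± 0.46 (edgeR adjusted p = 0.716). A fit of the 2 groups alone put Nsd1 (adjusted p = 0.016), AI504432 (0.000885) and Lgals9 (0.00101) past the threshold, as it did 35.9% of the genes it tested. The groups of Plod2, Adgrl2, Lgals9 and AI504432 did not overlap, with DMXAA higher, and those of Nsd1 did not, with DMXAA lower, as in 16.6% and 15.9% of all genes tested. Median log2 changes were 0.25 over the 8 genes and 0.01 over all genes.

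In b2 WT cells none of the 8 genes passed in edgeR, where 7.80% of all genes tested did; at an unadjusted p under 0.05 AI504432 alone did. Plod2 stayed at 7.57, 8.67 and 7.85 CPM at rest against 7.66, 9.66, 9.70 and 10.4 CPM with DMXAA (log2 fold change 0.22 ± 0.15, adjusted p = 0.476), and these groups overlapped. The Plod2 response in b1 was larger than that in b2 by 0.95 ± 0.20 on the log2 scale (edgeR adjusted p = 0.0063, a test added after the data were seen, with 3.21% of all genes past the threshold). AI504432 was at 3.68, 2.69 and 3.21 CPM at rest and at 9.84, 9.45, 7.11 and 14.1 CPM with DMXAA, without overlap (1.66 ± 0.60, edgeR adjusted p = 0.0941). It passed in 3 of 14 alternatives.

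Within the knockout lines the 8 genes that were low had few counts left to compare. Adgrl2 had no fold within or between these lines and is left out of the counts. It passed on few counts in SGK3KO cells with DMXAA against rest (edgeR adjusted p = 0.026) and in dKO against SGK3KO cells with DMXAA (0.0192). In SGK3KO cells 1 of 8 genes with a fold passed, AI504432, which was at 0.0636, 0 and 0 CPM at rest and 0.0447, 0.217, 0.157, 0.627 and 0.215 CPM with DMXAA (16.5% of all genes tested changed, 8.58% upward). These values are near the floor of 12 counts and overlap, and without SGK3KO rest library 2 or 3, or DMXAA library 4, the adjusted p was 0.102, 0.0883 and 0.06. Maoa passed with DMXAA in none of the 3 lines: log2 0.09 ± 0.19 in SGK3KO, 0.18 ± 0.20 in SGK1KO and -0.18 ± 0.21 in dKO cells of b2, with edgeR adjusted p of 0.891, 0.563 and 0.663, although in dKO cells its groups did not overlap. Zfp334 gave -0.82 ± 0.34, -0.62 ± 0.35 and -0.38 ± 0.38 in the same lines, with edgeR adjusted p of 0.114, 0.197 and 0.594; in SGK3KO cells its groups did not overlap, and 2 of the alternatives (DESeq2, and the 2 groups alone) put it past the threshold.

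In SGK1KO cells 3 of 8 genes with a fold passed (24.1% of all genes tested did, 12.5% upward and 11.6% downward). Lgals9 went from 3.28, 2.19 and 2.24 CPM at rest to 1.25, 0.989, 0.856 and 0.492 CPM with DMXAA, a log2 fold change of -1.53 ± 0.31 (edgeR adjusted p = 0.000294), and Sdc3 from 1.88, 3.01 and 2.32 CPM to 0.905, 0, 0.398 and 1.10 CPM (-2.01 ± 0.51, 0.00339). AI504432 went from 0 in 3 libraries to 0.0835, 1.33, 0.319 and 0.390 CPM, at least 3.45-fold higher. Each of the 3 missed the threshold when the 2 groups were fitted alone (Lgals9 0.0887, Sdc3 0.333, AI504432 0.063). The b3 rerun of SGK1KO cells with DMXAA held 3.60 CPM of Lgals9 and 2.41 of Sdc3, at the level of the rest libraries, and with the reruns added the adjusted p was 0.101 and 0.0731. In dKO cells of b2, 2 of 6 genes with a fold passed (of all genes tested 7.44% rose and 6.51% fell): Sdc3 (-2.43 ± 0.79, edgeR adjusted p = 0.0326) was lower and Arl4c (4.69 ± 1.16, 0.00382) higher, from means of 0.702 and 0.0141 CPM to 0.128 and 0.453 CPM. The mean of Sdc3 with DMXAA and that of Arl4c at rest were under the floor, so the sizes of these folds are uncertain. Fitted alone the 2 groups gave adjusted p of 0.437 and 0.186. The Sdc3 call was also lost without dKO DMXAA library T or U or rest library G (adjusted p = 0.0663, 0.145 and 0.211), and with the reruns added its log2 fold change was -0.95 ± 0.67 (0.439); the Arl4c call was lost without library U (0.0575).

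The knockout lines were then compared with each other. No WT library is on either side, although the spread of each gene was estimated over all 46 libraries, WT included. The knockout libraries on both sides are among those that chose the genes, so nothing is read from how many of the genes were called. Between dKO and SGK3KO cells with DMXAA in b1, 1 gene was higher in the dKO and 1 lower, of 8 with a fold, where 0.748% of all genes tested were higher and 1.41% lower (2.16% in all). Zfp334 was the higher, with the libraries listed above: a mean of 3.69 ± 0.405 CPM (n = 5) against 0.748 ± 0.166 (n = 5), log2 2.30 ± 0.31 (edgeR adjusted p = 4.76e-06). It passed in all 18 alternatives, from 1.81 to 2.43. Nid2 was the lower (-3.04 ± 0.77, edgeR adjusted p = 0.0216), from 0.322 ± 0.0884 CPM in SGK3KO cells to 0.0417 ± 0.0741 in dKO cells, which is under the floor; leaving out SGK3KO library 5 or dKO library 1, 2, 4 or 5 gave adjusted p of 0.0673 to 0.0937. Maoa was at 29.0 ± 2.44 CPM in dKO and 28.1 ± 2.93 CPM in SGK3KO cells, a log2 difference of 0.04 ± 0.16 (edgeR adjusted p = 1).

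Between dKO and SGK1KO cells at rest in b2, 4 of 6 genes with a fold were lower in the dKO, where 8.96% of all genes tested were lower and 19.5% changed. Lgals9 was at 0.393, 0.451 and 0.245 CPM in dKO and 3.28, 2.19 and 2.24 CPM in SGK1KO cells (log2 -2.81 ± 0.38, edgeR adjusted p = 2e-06), and passed in all 13 alternatives. Nid2 (-4.52 ± 0.96), Nsd1 (-2.87 ± 0.83) and Sdc3 (-1.75 ± 0.55) had edgeR adjusted p of 0.00139, 0.0145 and 0.0231, and 0.188, 0.267 and 0.141 with the 2 groups alone. The dKO means of Nid2 (0.0317 CPM) and Nsd1 (0.05 CPM) were under the floor of 0.148 CPM, so the sizes of these folds are uncertain. With DMXAA, 3 of 8 were lower in the dKO (3.52% of all genes tested were lower, 6.63% changed): Lgals9 (-2.32 ± 0.43, edgeR adjusted p = 0.000365), AI504432 (-4.73 ± 0.99, 0.00195) and Nid2, which had no count in the dKO and was at least 1.89-fold lower. With the 2 groups alone, where 57 genes of 14589 passed, these 3 gave 0.767, 0.544 and 0.523. The dKO mean of AI504432 with DMXAA, 0.0212 CPM, was under the floor of 0.166 CPM, so the size of its fold is uncertain. The count of all genes called between these lines at rest fell from 3573 to 627 without the 6 b2 libraries whose levels rose most with gene length (E, F, H, P, R and X, by 0.0332 to 0.117 log2 CPM per doubling of length), and the Nsd1 and Sdc3 adjusted p became 0.0764 and 0.319. That fit leaves SGK1KO cells at rest with library D alone, whose spread is taken from the other groups.

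**Figure D3:**
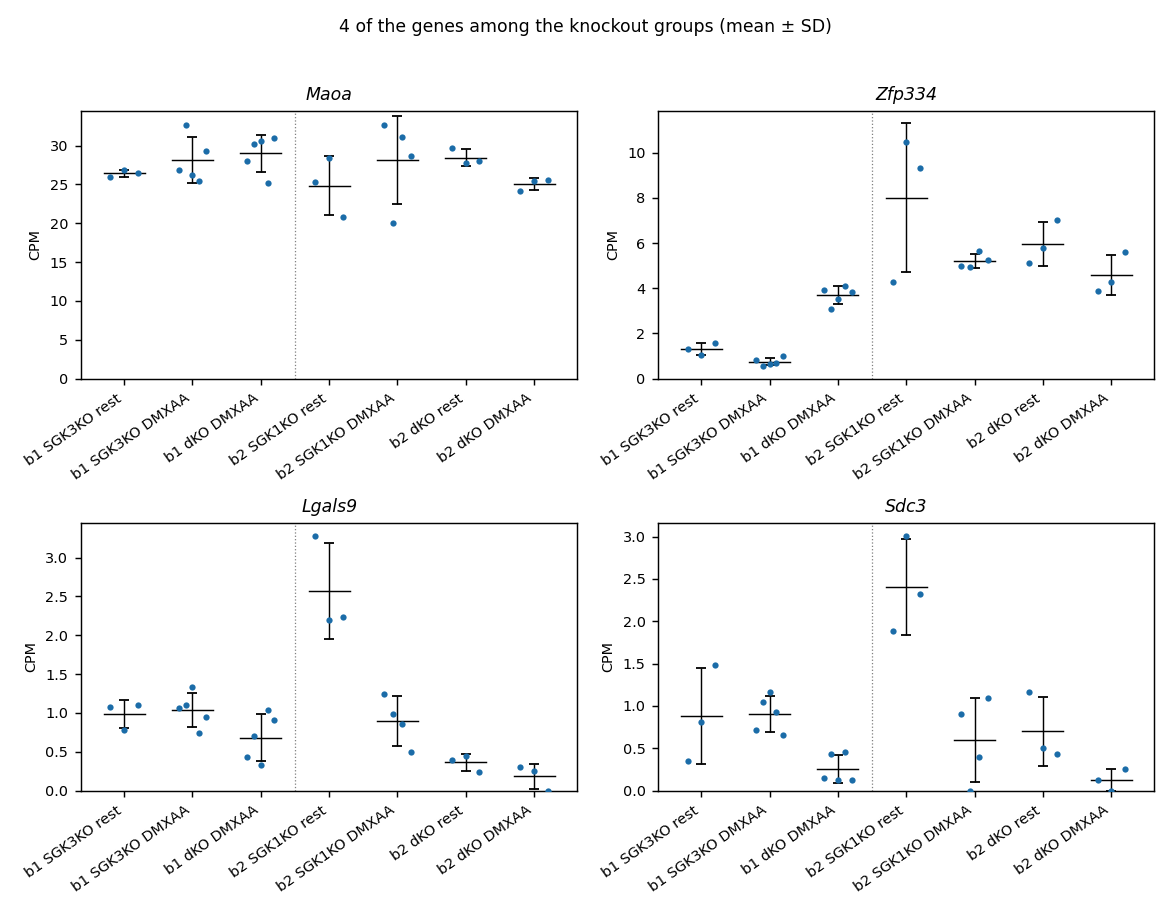
CPM of Maoa, Zfp334, Lgals9 and Sdc3 in the 7 knockout groups of b1 (left of the dotted line) and b2. Points are libraries, lines are means and bars are SD. Maoa is level across groups at 20.0 to 32.7 CPM, Zfp334 is lowest in SGK3KO cells at 0.570 to 1.57 CPM, and Lgals9 and Sdc3 are highest in SGK1KO cells at rest.

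Genes related to the 10 are given as a description, and nothing is read from how many of them were called. Of 85 genes on 8 lists, drawn up with earlier results of these data known, 64 were tested, and 5 were past the threshold in 1 direction in all 7 knockout contrasts: Adgrl1 was higher, and P4hb, Agrn, Sdc1 and Lgals3bp lower. In all genes tested 0.524% were higher and 0.830% lower in all 7. Adgrl1, an adhesion receptor of the same latrophilin family as Adgrl2, was at group means of 27.5 to 38.1 CPM in WT and 42.8 to 76.5 CPM in knockout cells (log2 0.64 to 1.00). Lgals3bp, a secreted protein that binds galectins, went from 200 to 350 CPM in WT group means to 54.0 to 128 CPM (log2 -2.70 to -1.21). Agrn, the proteoglycan agrin of basement membranes, went from 18.5 to 37.0 CPM to 4.64 to 13.6 CPM (-2.09 to -0.94). Sdc1, a syndecan like Sdc3, ranged from -1.65 to -0.45, and P4hb, a subunit of prolyl 4-hydroxylase and a partner of galectin-9, from -0.60 to -0.20. None of these 5 was near 0 in the knockout lines. Adgrl1, Lgals3bp and Agrn were called alike in all 7 alternative fits, and Sdc1 and P4hb in 3 of 7; both lost the call without the 6 b2 libraries E, F, H, P, R and X, with limma on TPM, and with b1 and b2 fitted apart, with or without the replicate block.

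The lists of monoamine metabolism, histone H3 lysine 36 and ARL and ARF GTPases held no gene called alike in all 7 contrasts. Among the 7 tested genes of monoamine metabolism the median gene was called in 0; Akr1b3 was called in 3 of 7 and Aldh2 in 2. The 10 genes acting on lysine 36 of histone H3 and the 14 ARL and ARF GTPases had a median of 1 contrast in each list. Maob and Nid1, the paralogs of Maoa and Nid2, did not pass the filter on low counts. Of the 9 tested genes of collagen hydroxylation and crosslinking, which include P4hb, Colgalt1 was called in 1 of 7, P4ha1 in 5 and Plod3 in 4.

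The inhibitor lowered 8 of the 64 related genes and raised 1, and 55 did not pass. Of all genes tested, 4.81% fell and 3.70% rose. The median log2 change was -0.03 over the 64 and 0 over all genes. As the lists were drawn up with earlier results known, these counts and the median are a description only. By list, 3 of 9 collagen enzymes fell, 2 of 6 basement membrane genes, 1 of 7 syndecan and glypican genes and 3 of 8 galectins and partners (P4hb is on 2 lists), with none of the monoamine, adhesion receptor, histone or GTPase genes. Agrn changed by -0.80 ± 0.16 (edgeR adjusted p = 0.000608), Lgals3bp by -0.64 ± 0.10 (1.08e-05), Sdc4 by -0.57 ± 0.09 (5.82e-06), Lamc1 by -0.54 ± 0.08 (5.19e-06), Cd44 by -0.54 ± 0.08 (2.95e-06) and P4ha1 by -0.51 ± 0.07 (3.67e-07). P4hb fell by 0.16 ± 0.05 (0.0308), Plod1, named after its value was seen, fell by 0.30 ± 0.06 (0.00028), and Sdcbp, which binds syndecans, rose by 0.18 ± 0.06 (0.0318). Adgrl1 and Sdc1 did not pass (-0.07 ± 0.10 and -0.21 ± 0.10, adjusted p = 0.838 and 0.225).

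**Figure D4:**
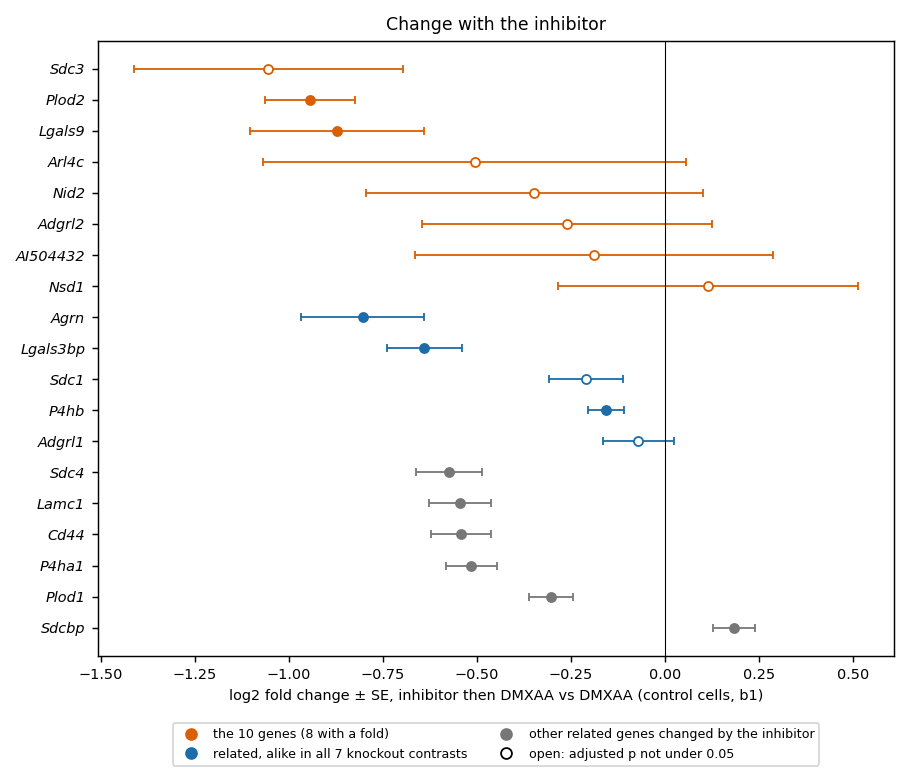
Log2 fold change ± SE of the inhibitor then DMXAA against DMXAA in b1 WT cells, for the 8 genes with reads there (orange), the 5 related genes called alike in all 7 knockout contrasts (blue) and the other related genes changed by the inhibitor (grey). Filled points passed the adjusted p threshold of 0.05 and open points did not. Plod2 (-0.94) and Lgals9 (-0.87) are filled, and Sdc3, at -1.05, is open with a wider bar.

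Genes next to the 10 on the chromosome were examined as well. Of 20 nearest tested neighbours, 1 on each side, 12 were called in none of the 7 knockout contrasts and 3 were called lower in all 7, where the median gene of all tested was called in 0 and 0.830% of all were lower in all 7. Kcna3, a voltage-gated potassium channel gene, lies 1434 bases from AI504432, and its group means went from 1.33 to 6.02 CPM in WT cells to 0 to 0.0368 CPM in knockout cells. It was also the gene whose pattern was most like that of AI504432 over the 46 libraries (Pearson r = 0.972). Glrp1, 163059 bases from Arl4c, went from 0.546 to 0.892 CPM to 0 to 0.0346 CPM. Gm38391 overlaps Plod2 on the opposite strand, and the sources used here do not say whether the counting used strand, so its reads (0.0774 to 0.639 CPM in WT cells, 0 in knockout cells) cannot be told apart from those of Plod2. In the alternative fits Kcna3 was called in 7 of 7, Glrp1 in 6 and Gm38391 in 1. Dipk2a, 1909436 bases from Plod2 and named after its values were seen, went the other way: it was called higher in 5 of 7 contrasts and rose with the inhibitor (0.35 ± 0.09, edgeR adjusted p = 0.0072). Of the other neighbours, Nos2 and Ksr1 beside Lgals9, Rab24 beside Nsd1, Laptm5 beside Sdc3 and Fundc1 beside Maoa were called in 0 of 7. With the inhibitor Kcna3 was at 3.42 CPM against 3.39 CPM with DMXAA alone (log2 0.01 ± 0.55, edgeR adjusted p = 1).

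The genes with the nearest patterns over the 46 libraries fell into a few names. These libraries form 2 sets, WT and knockout, and r was taken over both, on log2(CPM + 0.5) less each gene's mean in the batch. Plod2, Adgrl2, Nid2 and Nsd1 were all nearest to Bicd1 (0.979, 0.984, 0.972 and 0.979), at 1.12 to 3.02 CPM in WT and 0 to 0.0610 CPM in knockout libraries. Sdc3 and Lgals9 were both nearest to H2-T24 (0.983 and 0.980), an MHC class I-like gene whose relatives can share its reads; it fell with the inhibitor too (-0.64 ± 0.17, edgeR adjusted p = 0.012). Arl4c was nearest to Ctsc (0.964) and Zfp334 to Pde8a (0.973).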

How the data were processed

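Poly-A RNA was sequenced from 50 libraries. Reads were aligned with STAR 2.7.9a and quantified with StringTie 2.2.0, on GRCm39, per the submitters' processing notes; strand handling is not given in the sources used here. The deposited expected counts are the authors' estimated counts per gene, rounded here to whole numbers; the deposited TPM values were used for levels per length and for 1 alternative. The 46 libraries of batches b1 and b2 were fitted together in edgeR 4.0.16 (R 4.3.3; TMM, filterByExpr, robust quasi-likelihood F test, 1 coefficient per group of each batch), with Benjamini-Hochberg adjustment over 18315 genes and a threshold of 0.05. Alternatives used DESeq2 1.42.0 and limma 3.58.1. The test was checked on simulated data in which each gene had 1 mean over all groups, apart from changes set in the inhibitor group. That check does not cover genes near 0 in only the WT or only the knockout groups, as the 10 genes are. The floor of 12 counts takes 4 counts as 1 read pair, since 4 was the most frequent low value (17.5% of values from 1 to 16); the labels do not give this unit. Folds are given as lower bounds against groups with no count, and floors cover counting error only. Nothing says that replicates were separate cultures, so the spread between samples may be technical. In the main fit, the spread behind each p-value was estimated per gene over all 46 libraries, not only over the groups compared. Of 71 pairs of replicates none was identical. The 10 genes, the related lists and the alternatives were chosen with earlier results of these data known. All 10 genes are named; of related and neighbouring genes, those called alike in all 7 knockout contrasts and up to 3 others per list by mean CPM. Some values these rules name are not reported here. Library J is in no group, since its title says no treatment and its treatment field DMXAA.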

Additional observations from a re-analysis of the deposited data

Results flagged for a closer look

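In b2 WT cells with DMXAA, library L held 53.5 CPM of Sdc3 and the other 3 libraries 35.6 to 38.2 CPM, a gap that a Dixon test at 95% marks; chance marks about 1 in 20 groups. The DMXAA response of Plod2 in WT cells differed between batches, 0.947 ± 0.20 higher in b1 (edgeR adjusted p = 0.0063). This test was added after the data were seen.

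The b3 reruns entered no comparison, other than the alternative that adds them. Maoa was at 28.9 CPM in SGK1KO rerun S and at 25.7 and 32.2 CPM in dKO reruns V and W, where the highest WT library was at 0.173 CPM. Zfp334 was at 4.86, 5.80 and 3.36 CPM in S, V and W, where the highest WT library was at 0.057 CPM.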

How the results depend on the processing

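Over the tests of single genes among the 10, 975 of 1057 values kept their direction and side of the threshold, 49 lost the call and 33 gained one; no called value changed sign, and a change of sign between values past the threshold in neither fit was counted as kept. The changed values include comparisons within WT cells as well as within and between the knockout lines. The cause of each change was not tested.

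Counts of genes called moved by over 1.5 times as follows. For the inhibitor the count was 1558, against 2725 without the b2 libraries E, F, H, P, R and X, 2868 with the 2 groups alone, 3586 with b1 and b2 fitted apart (added after seeing the data) and 3578 with b1 alone and a replicate block. For DMXAA in WT b1 it was 3870 and 6007 with the batches apart. For WT b2 it was 1428, 2419 without those 6 and 624 with the batches apart. For SGK3KO it was 3029, 5339 with the 2 groups alone, 5097 with the batches apart and 4804 with the replicate block. For SGK1KO it was 4410, 2043 without those 6, 763 alone and 1745 apart, and for dKO b2 2555, 475 alone and 1071 apart. For dKO against SGK3KO it was 396, 681 without those 6, 835 alone, 876 apart and 874 with the replicate block. For dKO against SGK1KO it was 3573 at rest (627 without those 6, which leaves SGK1KO library D alone, 69 alone, 555 apart) and 1215 with DMXAA (57 alone, 309 apart). Related and neighbouring genes alike in all 7 contrasts numbered 8, 4 without those 6, and 5 with limma on TPM, with the batches apart and with the block in b1.

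Leaving out 1 replicate gave counts of 1184 to 1506 (inhibitor), 2990 to 3721 (WT b1), 1035 to 1308 (WT b2), 2213 to 3000 (SGK3KO), 2890 to 5456 (SGK1KO, lowest without rest F), 1872 to 2860 (dKO b2), 295 to 350 (dKO against SGK3KO), 1350 to 5237 (dKO against SGK1KO at rest, lowest without SGK1KO rest F) and 888 to 1647 (with DMXAA). An arm left with few samples was assumed to vary like the others. Replicate numbers of b1 do not pair libraries: over 57 same-number pairs the median correlation was 0.0084, 3 were over 0.1, and 7 of 26 libraries correlated best with their own number. With the floor at 3 counts in place of 12, the bounds given for Maoa, Plod2, Adgrl2 and the others are 4 times as large.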

Other observations

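Library J of b3, whose title says no treatment and whose treatment field says DMXAA, is labelled WT by genotype. It held no count of Maoa or Zfp334, 10.4 CPM of Plod2, 31.8 of Sdc3, 23.3 of Lgals9 and 14.3 of AI504432.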
